A study of Mus musculus with 12 samples.

Results

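The fibroblast growth factor (FGF) genes described here are 9 of the 52550 features of the count table: the secreted ligands Fgf1, Fgf2 and Fgf9, the homologous factors Fgf12, Fgf13 and Fgf14, and the receptors Fgfr1, Fgfr2 and Fgfr3. They were found by symbol, and all 9 passed the filter on low counts. The set was chosen from a measured value: Fgf1 was lower in every Fmr1 knockout library, and the other 8 genes were added as its relatives and receptors. The genotype difference of Fgf1 is therefore given as a description, with no test.

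The study asked how messenger RNA of cortical astroglia differs between Fmr1+/y (wild type) and Fmr1-/y (knockout) male mice. Fmr1 encodes FMRP, an RNA-binding protein of translating ribosomes whose loss causes fragile X syndrome. All animals were of the mixed strain FVB/C57, at postnatal day 40, and both genotypes carried the Aldh1l1-TRAP transgene, which puts an eGFP-tagged ribosomal protein into cells in which the astrocyte promoter Aldh1l1 is active. RNA on tagged ribosomes was pulled down from somatosensory cortex with an eGFP antibody and sequenced with a stranded total RNA kit that removes ribosomal RNA. The labels name no cell type to which the loss of Fmr1 is limited, while the tagged ribosomes are limited to cells that use the Aldh1l1 promoter. There are 12 entries, 2 for each of 6 libraries, and the entries of a library were summed, which gave 3 libraries a genotype, named below as knockouts 14, 16 and 18 and wild types 13, 15 and 17. Whether each library stands for its own animal is not in the labels, and the errors measure the spread between these libraries.

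FGFs are heparin-binding signals. Secreted FGFs bind receptor tyrosine kinases of the FGFR family together with heparan sulfate, and the receptors signal through the adaptor FRS2 to RAS and the kinase ERK, which induces ETV transcription factors and the inhibitors of the Sprouty, SPRED and DUSP families. In the cortex Fgfr3 is a known marker of astrocytes and their progenitors, FGF2 is a known mitogen of neural stem cells and astrocytes, and FGF1 and FGF2 lack a classical secretion signal. The homologous factors FGF12, FGF13 and FGF14 are not secreted, and are known in neurons as partners of voltage-gated sodium channels.

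Total counts lay between 10953958 and 22397202 per library. The 3 features on which ribosomal RNA reads collect (CT010467.1, Lars2 and AY036118) took 35.6% and 45.1% of the counts of knockout libraries 14 and 16, and between 0.892% and 7.45% in the other 4 libraries. Fmr1 measured 1.32 to 4.32 CPM (counts scaled to a common library total, with library sizes by the TMM method) in the knockout and 31.6 to 38.4 CPM in the wild type. All 16 astrocyte markers were detected, at a median of 522 CPM. Markers of other cells were detected too, with medians of 84.0 CPM for 20 neuron markers, 30.7 CPM for 14 oligodendrocyte markers and 2.93 CPM for 14 microglia markers. The files used here give no transcript lengths, and longer transcripts collect more reads, so levels are compared between libraries and never between genes.

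Fgf1 was the FGF gene that stood apart between the genotypes. FGF1 is a ligand that binds every FGF receptor. Its gene spans 38838672 to 38929470 on chromosome 18 (RefSeq, GRCm38.p6, the assembly that mm10 names). Fgf1 measured 226, 207 and 240.2 CPM in wild types 13, 15 and 17, and 78.0, 71.4 and 156 CPM in knockouts 14, 16 and 18. The wild-type libraries lay close together, knockout libraries 14 and 16 lay far below them, and knockout library 18 lay between, so that the groups did not overlap. The means were 102 ± 46.9 CPM in knockouts against 224 ± 16.6 CPM in wild types (SD, n = 3 each), a 2.20-fold lower mean in knockouts with a log2 fold change of -1.14 (SE 0.29). Among the 9349 genes with a mean of at least 10 CPM, 7 had a lower log2 fold change. Fgf1 was chosen on this same contrast, so its standing apart and its rank are descriptions and support nothing. In a bulk pull-down such as this, fewer cells of a type and less RNA per cell cannot be told apart.

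**Figure D1:**
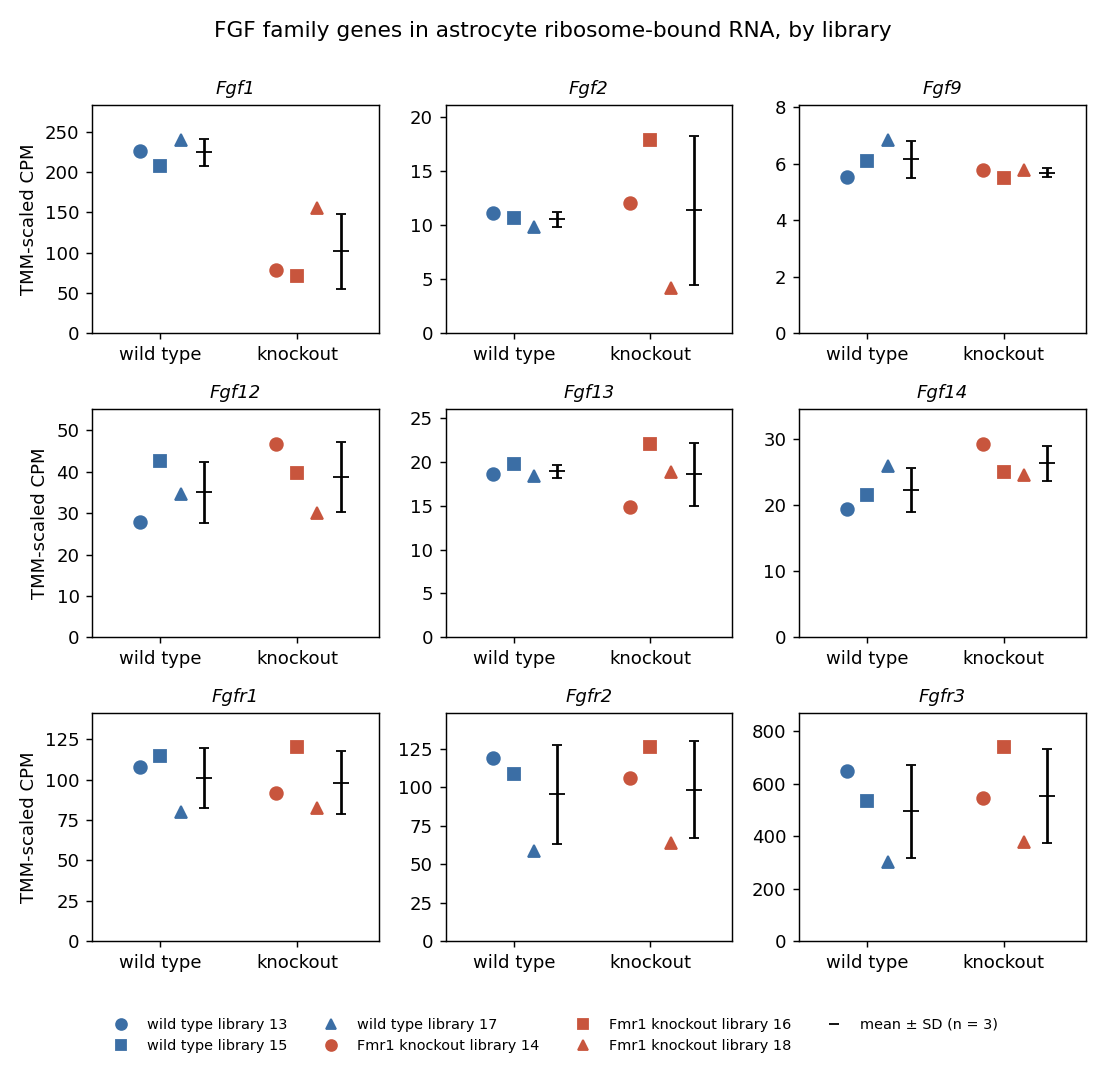
Levels of the 9 FGF genes in TMM-scaled CPM (vertical axes, each from 0), 1 point per library, with wild-type libraries in blue, knockout libraries in red and the mean ± SD of each group (n = 3) in black; shapes only tell libraries apart. Fgf1 alone has all knockout libraries (71.4 to 156 CPM) below all wild-type libraries (207 to 240.2 CPM).

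Counting error was small beside these differences. Fgf1 had 956, 507 and 4024 counts in knockouts 14, 16 and 18 against 5311, 5243 and 6276 counts in wild types 13, 15 and 17. The CPM of the first entry over that of the second entry of a library lay between 0.953 and 1.06 for Fgf1 across the 6 libraries. For Fgf9, the member with the fewest counts, the same ratio lay between 0.948 and 1.33.

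The size of the Fgf1 difference depended on which knockout libraries were used. Without knockout libraries 14 and 16, the libraries with the large ribosomal RNA share, the log2 fold change of Fgf1 was -0.50, with a single knockout library left. Without knockout library 18 it was -1.59. The part of the ribosomal RNA share in the size of the difference was not tested.

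Library names carry a number 5 (libraries 13, 14 and 16) or 6 (libraries 15, 17 and 18) in their date-like part, which allows a comparison within each. Among libraries with the number 5, Fgf1 measured 74.7 CPM as the mean of 2 knockout libraries and 226 CPM in the 1 wild-type library. Among libraries with the number 6, it measured 156 CPM in the 1 knockout library and 224 CPM as the mean of 2 wild-type libraries. The fold was thus 3.03 within the number 5 and 1.44 within the number 6, while the shared direction follows from how Fgf1 was chosen. With the number as a covariate the log2 fold change was -1.06.

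The authors' deposited table lists Fgf1 at a log2 fold change of -1.13. Of the 14843 features in the authors' deposited table, 85 (0.573%) have an adjusted p under 0.05, and Fgf1 is the 1 member among them. That table gives values for the 12 entries, and the sources used here do not give how its test treated the 2 entries of a library. With the entries summed, edgeR's quasi-likelihood test called 0 of 14990 genes at an adjusted p under 0.05 (0% called; 265 at an unadjusted p under 0.05), and so 0 of the 9 members. DESeq2 called 8 of 14981 genes (0.0534%) and edgeR's exact test 9 of 14990 genes (0.06%), with 0 members among either. At an unadjusted p under 0.05 in the quasi-likelihood test, 155 genes were lower (1.03%) and 110 higher (0.734%), with Fgf1 the 1 member among them. Each knockout library was below each wild-type library in 487 genes (3.25%) and above in 442 genes (2.95%), and of the 9 members 1, Fgf1, was below and 0 were above. Since Fgf1 was selected on this contrast, these counts describe the set and nothing is read from them.

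Other cell types' markers moved between libraries, and Fgf1 was set against them. Astrocyte marker levels summed to 17999 to 23473 CPM in the knockout and 18286 to 24046 CPM in the wild type, neuron markers to 2371 to 3214 and 1722 to 3125 CPM, and oligodendrocyte markers to 663 to 1525 and 730.3 to 1292 CPM. No marker of these 3 lists was at 0, and their log2 fold changes were positive for 7 of 16, 15 of 20 and 11 of 14 members. Endothelial marker sums were 6.1, 8.17 and 15.3 CPM in knockouts 14, 16 and 18 against 8.56, 12.0 and 13.3 CPM in wild types 13, 15 and 17. On a log2 scale with the wild-type mean at 0, the endothelial marker mean was -0.83, -0.58 and 0.34 in these knockouts. It was -0.28, 0.11 and 0.17 in these wild types. Of the 11 endothelial markers 9 passed the filter, at a low median of 1.08 CPM, 5 of them with a positive log2 fold change. Microglia markers summed to 60.9 to 71.9 CPM in knockouts and 69.3 to 84.7 CPM in wild types, with a negative log2 fold change for 12 of 14. Their mean on the log2 scale was -0.15, -0.39 and -0.34 in knockouts 14, 16 and 18. In wild types 13, 15 and 17 it was -0.11, -0.0025 and 0.11, so on this measure the groups did not overlap. Fgf1 was not scaled to the microglia markers. The part of these cell types in the level of Fgf1 was not tested.

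Relative to the mean of the astrocyte markers, Fgf1 in knockout library 18 lay next to the wild type. On a log2 scale with the wild-type mean at 0, Fgf1 minus the astrocyte marker mean was -1.62, -1.86 and -0.24 in knockouts 14, 16 and 18 against -0.20, -0.18 and 0.38 in wild types 13, 15 and 17. The groups still did not overlap, but library 18 was separated from library 13 by less than the spread of the wild type (SD 0.33). Relative to the neuron markers Fgf1 was at -1.56, -1.48 and -0.98 in the knockout, with the lowest wild-type library at -0.30. Relative to the oligodendrocyte markers it was at -1.63, -0.92 and -1.21, with the lowest wild-type library at -0.35. These scalings were chosen after the data were seen, and since Fgf1 was selected for lying below the wild type in every knockout library, they describe its size and support nothing about its direction.

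**Figure D2:**
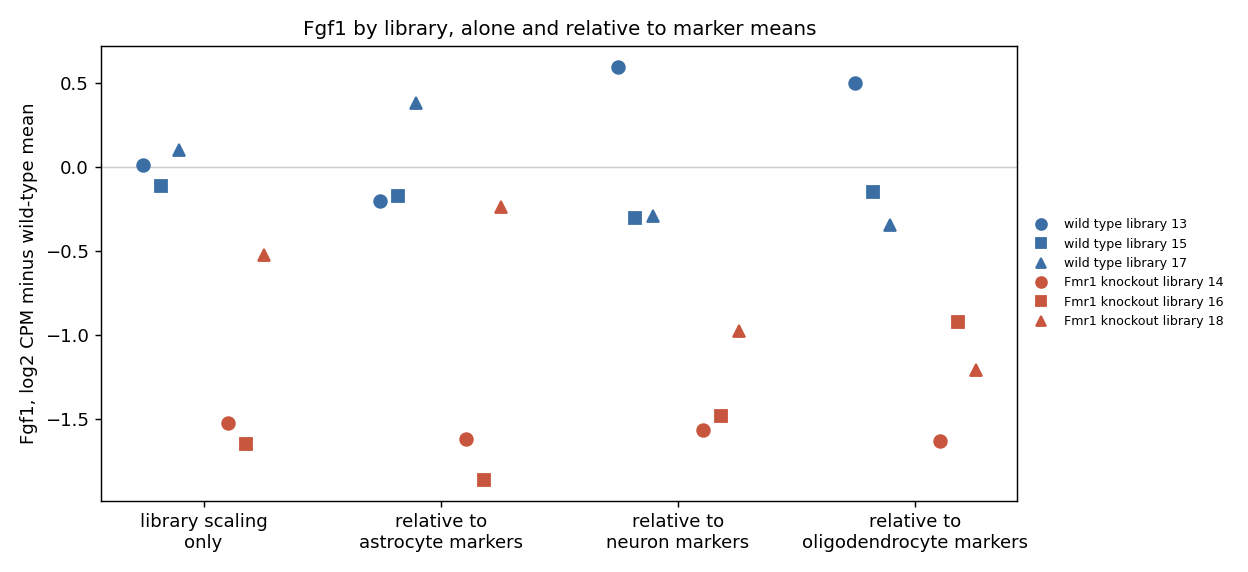
Fgf1 in each library as log2 CPM minus the wild-type mean (vertical axis), with library scaling only and after subtraction of the mean of the astrocyte, neuron or oligodendrocyte markers (horizontal positions). Knockout library 18 lies at -0.24 relative to astrocyte markers, beside wild-type library 13 at -0.20, and at -0.98 relative to neuron markers.

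The genes most alike Fgf1 across the 6 libraries were Zfp532 (Pearson r 0.98), Gnpda1 (r 0.98), Capzb (r 0.98), Nkd1 (r 0.97) and Cisd3 (r 0.97), out of 9349 genes with a mean of at least 10 CPM. The r values are descriptions over 6 libraries that share their scaling. As follows from that choice, all 5 had knockout libraries below wild-type libraries without overlap, at smaller differences than Fgf1. Capzb, which encodes a subunit of the actin-capping protein, measured 100.4 ± 10.8 CPM in knockouts against 128 ± 6.83 CPM in wild types (SD, n = 3 each). Nkd1, an inhibitor of Wnt signalling, measured 19.8 ± 3.53 and 28.9 ± 2.85 CPM.

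Zfp532 and Gnpda1 lie on chromosome 18, as does Fgf1, while Capzb, Nkd1 and Cisd3 lie on other chromosomes. The share of all genes that lie on chromosome 18 was not computed. Zfp532 (65580230 to 65689443) lies far outside the 1 Mb window around Fgf1 that is used below. Gnpda1 (38327537 to 38338993) ends 499.7 kb from the span of Fgf1. Gnpda1, which encodes glucosamine-6-phosphate deaminase, measured 18.03, 16.8 and 24.5 CPM in knockouts 14, 16 and 18 against 25.0, 25.7 and 28.4 CPM in wild types 13, 15 and 17. The surroundings of Fgf1 were then listed, a choice made after these values were seen. Within 1 Mb of Fgf1 there were 35 other tested genes, 22 of them protocadherin gamma genes, which share exons with each other. Of the other 13 genes 8 had a negative and 5 a positive log2 fold change, and the median over all 35 was -0.02, against -0.0019 over all genes tested. Of the 35, Gnpda1 and Pcdhgc5 had every knockout library below every wild-type library and Pcdhgb4 had every knockout library above, where 3.25% and 2.95% of all genes did. These counts are too small to set apart from that background. Arhgap26, whose span (38601617 to 39376285) holds that of Fgf1, measured 65.2 ± 9.38 CPM in knockouts against 62.6 ± 12.9 CPM in wild types (SD, n = 3 each). Without a stated strand setting, reads in sequence shared by these overlapping genes cannot be assigned to either with certainty. Spry4, an inhibitor of FGF signalling whose gene lies 237.3 kb from Fgf1, measured 18.5 ± 4.87 and 17.9 ± 4.64 CPM. Nr3c1, the glucocorticoid receptor gene, measured 117 ± 16.2 and 129 ± 8.49 CPM, and the libraries of all 3 genes overlapped between genotypes.

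Fgf2 had about equal group means but unequal libraries within the knockout. FGF2 is the classical mitogen of astrocyte cultures. Fgf2 measured 12.1, 17.9 and 4.18 CPM in knockouts 14, 16 and 18 against 11.2, 10.7 and 9.80 CPM in wild types 13, 15 and 17. Knockout libraries 14 and 16 were above all wild-type libraries and knockout library 18 below all of them, while the wild type was even. Its knockout mean of 11.4 ± 6.88 CPM compared with 10.5 ± 0.689 CPM in wild types (SD, n = 3 each; log2 fold change 0.08, SE 0.44), and without libraries 14 and 16 the log2 fold change turned to -1.31. The astrocyte marker mean was -0.28 in both knockout 18 and wild type 17, on the log2 scale relative to the wild-type mean. Relative to the astrocyte markers Fgf2 was at 0.10, 0.55 and -1.03 in knockouts 14, 16 and 18. In wild types 13, 15 and 17 it was at -0.13, -0.04 and 0.18. The part of astrocyte content in the level of Fgf2 was not tested.

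Across the knockout libraries Fgf2 was high where Fgf1 was low. The ratio of the CPM of Fgf1 to that of Fgf2, compared only between libraries, was 6.46, 3.99 and 37.3 in knockouts 14, 16 and 18 against 20.3, 19.4 and 24.5 in wild types 13, 15 and 17. The wild-type ratios were close together, and the knockout ratios lay on both sides of them. The span of Fgf2 (chromosome 3, 37348477 to 37410106, plus strand) overlaps the minus-strand gene Nudt6. The counts of Fgf2 in the entries were not whole numbers, as RSEM can divide a read between features, and the sources used here do not give the strand setting of the counting. Nudt6 measured 3.67, 3.10 and 5.03 CPM in knockouts 14, 16 and 18 against 3.92, 3.59 and 2.03 CPM in wild types 13, 15 and 17. Its level was highest in knockout 18, where Fgf2 was lowest. It was lowest in wild type 17, where Fgf2, at 9.80 CPM, was also the lowest of the wild types, so no inverse pattern held across the libraries.

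Fgf9 was even across the libraries. FGF9 is a ligand made by neurons and glia that acts on FGFR2 and FGFR3. Fgf9 (chromosome 14, 58070671 to 58112854) measured 5.79, 5.49 and 5.76 CPM in knockouts 14, 16 and 18 against 5.54, 6.08 and 6.85 CPM in wild types 13, 15 and 17. The groups overlapped, with means of 5.68 ± 0.166 and 6.16 ± 0.660 CPM (SD, n = 3 each; log2 fold change -0.11, SE 0.21, with a 95% interval from -0.59 to 0.37). These levels rest on 39 to 179 counts per library.

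The homologous factors overlapped between the genotypes. Fgf12 (chromosome 16, 28157783 to 28753243) measured 46.8, 39.7 and 29.9 CPM in knockouts 14, 16 and 18 against 27.8, 42.7 and 34.6 CPM in wild types 13, 15 and 17. Its lowest library was wild-type 13 and its highest knockout 14, and the log2 fold change was 0.15 (SE 0.21, 95% interval -0.35 to 0.64). Fgf13 (chromosome X, 59062139 to 59585572), which is also known to bind microtubules, measured 14.9, 22.1 and 18.9 CPM in knockouts against 18.7, 19.8 and 18.4 CPM in wild types. The knockout libraries of Fgf13 lay on both sides of a narrow wild-type range (log2 fold change -0.03, SE 0.18).

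Fgf14 had the largest positive log2 fold change of the 9 members. Fgf14 (chromosome 14, 123974441 to 124677686), whose human counterpart is mutated in a form of spinocerebellar ataxia, measured 29.3, 25.1 and 24.5 CPM in knockouts 14, 16 and 18 against 19.4, 21.5 and 25.8 CPM in wild types 13, 15 and 17. The 3 knockout libraries were above wild-type libraries 13 and 15, and wild-type library 17 lay among them. The log2 fold change was 0.24 (SE 0.16), with a 95% interval from -0.13 to 0.61 that includes 0.

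The homologous factors, known as neuronal proteins, were set against the neuron markers from library to library, and no relation passed the test. Neuron markers were lowest in wild-type library 13 (-0.58 on the log2 scale relative to the wild-type mean) and highest in knockout library 18 (0.45) and wild-type library 17 (0.39). Across the 6 libraries the Pearson r with the neuron marker mean was 0.20 for Fgf12 (exact permutation p = 0.722), -0.10 for Fgf13 (exact permutation p = 0.867) and 0.51 for Fgf14 (exact permutation p = 0.299), two-sided. Spearman's rho was 0.03 (exact permutation p = 1), -0.09 (exact permutation p = 0.919) and 0.26 (exact permutation p = 0.658). Adjusted over the 27 relations computed between members and marker lists, the Pearson p-values were 0.848, 0.867 and 0.504. Without libraries 13 and 18, the farthest from the median of the markers, r was -0.50, -0.26 and -0.16. With 3 libraries for each name number, no r could be given within them. The SD over the 6 libraries was 0.29, 0.18 and 0.21 on the log2 scale for Fgf12, Fgf13 and Fgf14 and 0.44, 0.44 and 0.33 relative to the neuron markers. The spread was thus wider after division by these markers.

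The receptor genes varied among libraries of 1 genotype more than between genotypes. Fgfr3 (chromosome 5, 33721724 to 33737068) measured 544, 737 and 377 CPM in knockouts 14, 16 and 18 against 649, 532 and 301 CPM in wild types 13, 15 and 17. In each genotype 1 library stood low, knockout 18 and wild-type 17. Fgfr3 averaged 553 ± 180.2 CPM in knockouts against 494 ± 177 CPM in wild types (SD, n = 3 each), with a log2 fold change of 0.16 (SE 0.32, 95% interval -0.57 to 0.89).

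Fgfr2 and Fgfr1 had the same low libraries. Fgfr2 (chromosome 7, 130162451 to 130266808), the receptor that is also abundant in oligodendrocytes, measured 106, 126 and 63.6 CPM in knockouts 14, 16 and 18 against 119, 108 and 58.7 CPM in wild types 13, 15 and 17. Its log2 fold change was 0.04 (SE 0.32, 95% interval -0.68 to 0.77). Fgfr1 (chromosome 8, 25518759 to 25575718), a receptor of both neurons and glia, measured 91.8, 119.8 and 82.5 CPM in knockouts against 108, 115 and 80.0 CPM in wild types (log2 fold change -0.04, SE 0.20, 95% interval -0.50 to 0.41). The libraries of each receptor overlapped between genotypes, and the intervals are wide, so they do not show that the receptor levels were equal.

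Fgfr3 and Fgfr2 kept a nearly fixed proportion. The ratio of their CPM was 5.14, 5.86 and 5.92 in knockouts 14, 16 and 18 against 5.46, 4.90 and 5.13 in wild types 13, 15 and 17, while Fgfr3 itself ran from 301 to 737 CPM. The ratio of Fgfr3 to Fgfr1 was less even, from 3.76 in wild-type library 17 to 6.15 in knockout library 16.

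**Figure D3:**
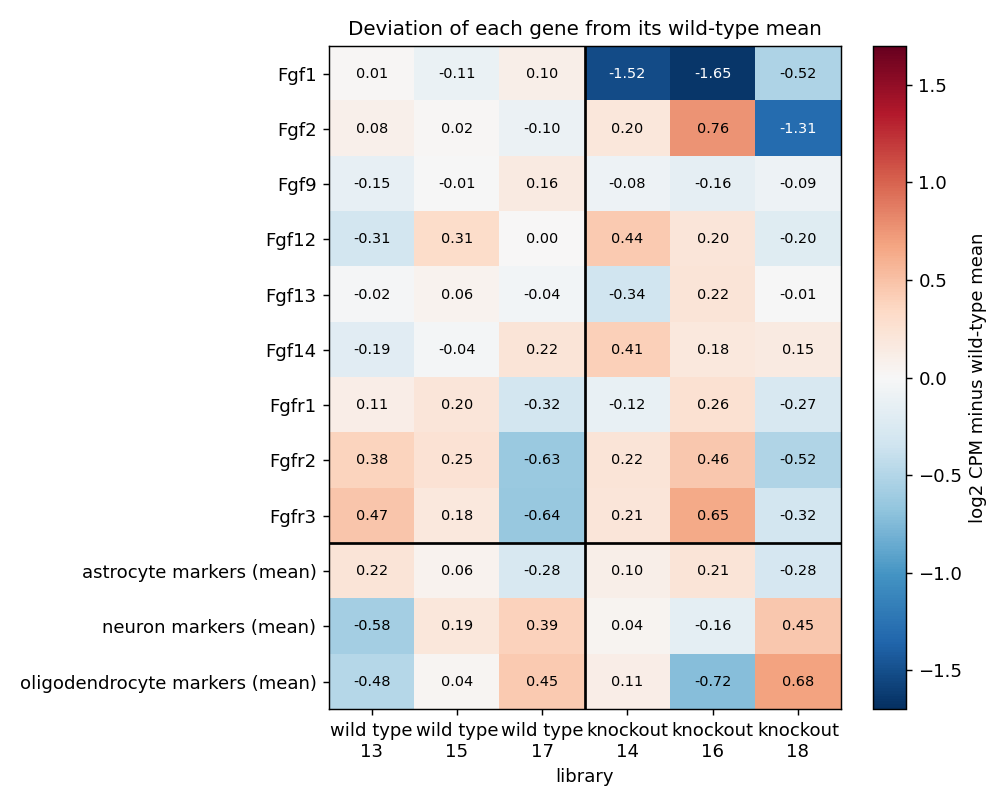
Log2 CPM of each member, and mean log2 level of 3 marker lists, minus the wild-type mean (colour and printed value), by library in columns. Fgfr2, Fgfr3 and the astrocyte markers are negative together in wild-type library 17 (-0.63, -0.64 and -0.28) and knockout library 18 (-0.52, -0.32 and -0.28), and Fgf1 is negative in all knockout libraries.

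The receptor genes were low in the libraries in which the astrocyte markers were low. The astrocyte marker mean was -0.28 in both wild-type library 17 and knockout library 18, and between 0.06 and 0.22 in the other 4 libraries. Since these 2 libraries stood apart on both measures, no r between the receptors and the astrocyte markers over the 6 libraries is given. Without libraries 17 and 18, r was 0.34 for Fgfr1, 0.91 for Fgfr2 and 0.93 for Fgfr3. Over the remaining 4 libraries these values are descriptions with no test. Relative to the astrocyte markers the SD over the 6 libraries was smaller, at 0.13 in place of 0.25 for Fgfr1, 0.25 in place of 0.48 for Fgfr2 and 0.27 in place of 0.49 for Fgfr3. Relative to the neuron markers the same SDs were 0.58, 0.82 and 0.83. Of the 27 relations between members and the astrocyte, neuron and oligodendrocyte marker means, 0 passed after adjustment in the exact permutation test (smallest adjusted p = 0.123), and 8 had an unadjusted p under 0.05. These 8 joined Fgf2, Fgfr1, Fgfr2 and Fgfr3 to the astrocyte markers, with positive r, and to the oligodendrocyte markers, with negative r. With 720 pairings of 6 libraries the test has little power, so 0 passing does not show that relations are absent. Wild-type library 17 and knockout library 18 also had the highest neuron and oligodendrocyte marker means, and the part of each cell type was not tested.

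**Figure D4:**
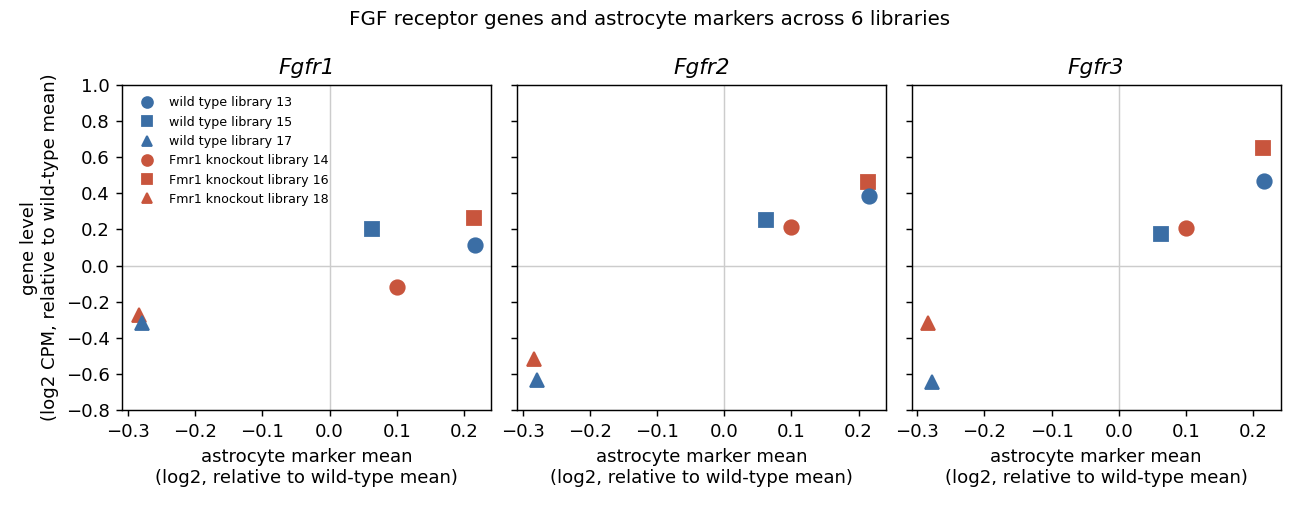
Level of each FGF receptor gene (vertical axis) against the mean of 16 astrocyte markers (horizontal axis), both as log2 relative to the wild-type mean, 1 point per library. Wild-type library 17 and knockout library 18 stand apart at the lower left in all 3 panels, with the astrocyte markers at -0.28.

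The genes most alike Fgfr3 over the 6 libraries were Gpr107, Gpr146, Inhbb, Fam198a and Slc46a1, with r from 0.995 to 0.997 as a description. All of them, like Fgfr3, were lowest in wild-type library 17 and knockout library 18, which stood apart, and these libraries enter the r values. Inhbb, which encodes a subunit of the growth factor activin B, ran from 3.06 CPM in wild-type library 17 to 23.4 CPM in knockout library 16. The folate transporter gene Slc46a1 ran from 16.99 to 39.6 CPM between the same libraries. Neither they nor the other 3 genes separated the genotypes.

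Beyond the 9 members, 109 genes of the FGF pathway in 9 lists were looked up, of which 108 were in the table and 93 passed the filter on low counts. Of these 93, 0 passed the adjusted threshold of the quasi-likelihood fit, as for all genes. At an unadjusted p under 0.05 there were 2, both higher, and their knockout libraries were also above all wild-type libraries. Over all genes, 0.734% were higher at that p and 2.95% had every knockout library above, so 2 of 93 is near the background of the latter. The median log2 fold change was -0.01, with 52 negative and 41 positive, against a median of -0.0019 over all genes (7550 negative and 7440 positive).

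Of the other 16 FGF ligands, 5 passed the filter. Fgf11, the remaining homologous factor, measured 10.4 CPM in knockouts against 8.17 CPM in wild types (log2 fold change 0.34, SE 0.20). Fgf5, Fgf7, Fgf10 and Fgf22 had means between 0.468 and 1.48 CPM in either genotype. Fgf10, a ligand of FGFR2, was led by 1 library, with 2.33 CPM in wild-type library 17 and 0.464 to 0.869 CPM in the others. Fgf4, Fgf6, Fgf8, Fgf15, Fgf20 and Fgf21 had 0 counts in all 6 libraries, which allows up to 0.115 to 0.422 CPM, depending on the library (3 counts, counting error only). Of the further receptors, the kinase-dead Fgfrl1 measured 83.0, 92.8 and 59.4 CPM in knockouts 14, 16 and 18 against 97.8, 81.1 and 55.2 CPM in wild types 13, 15 and 17. Fgfrl1 was thus low in the same 2 libraries as the other receptors, and its log2 fold change of 0.0034 (SE 0.24) turned negative under several settings. Kl, the co-receptor of endocrine FGFs that is abundant in choroid plexus, measured 5.10 CPM in wild-type library 15 and 1.23 to 2.37 CPM in the others, and choroid plexus and ependymal markers were highest in the same library, with a sum of 189 CPM. Fgfr4, with 14 counts in all, and Klb, with 4, were too low to be tested.

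None of the 10 genes of FGF binding and release passed, and their median log2 fold change was -0.03. S100a13, a carrier in the release of FGF1, measured 213 CPM in both genotypes. The intracellular FGF1-binding protein gene Fibp measured 78.6 and 81.7 CPM in the knockout and wild type, and the adhesion molecule gene Ncam1, a receptor partner, 159 and 164 CPM. L1cam, a neuronal adhesion molecule, measured 15.6 and 20.7 CPM (log2 fold change -0.39, SE 0.30), and the carrier gene Fgfbp1 3.29 and 4.07 CPM. The libraries of all 10 genes overlapped between genotypes.

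Heparan sulfate genes lay around 0. The 12 proteoglycans had a median of 0.11, and 0 of them passed. Sdc4, a syndecan, measured 248 and 235 CPM in the knockout and wild type, and ran from 155 CPM in knockout library 18 to 367 CPM in knockout library 16. Gpc5, a glypican of astrocytes, was at 43.6 CPM in knockout library 18 and between 71.7 and 113 CPM in the other libraries. Gpc4, an astrocyte-secreted glypican known to promote synapse formation, measured 6.50 and 7.84 CPM (log2 fold change -0.28, SE 0.21). Of 15 tested enzymes of heparan sulfate synthesis and editing 0 passed, with a median of -0.03. Hs6st2, a 6-O-sulfotransferase, measured 4.30 and 6.61 CPM (log2 fold change -0.60, SE 0.31), and Ndst3, an N-deacetylase and sulfotransferase, 6.34 and 4.11 CPM (log2 fold change 0.64, SE 0.39).

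Among the 13 receptor adaptors, Frs3 was the 1 gene whose groups did not overlap. Frs3 encodes a docking protein of the FRS2 family. It measured 10.2, 11.1 and 10.2 CPM in knockouts 14, 16 and 18 against 6.90, 7.70 and 7.23 CPM in wild types 13, 15 and 17. Both groups were even, and the log2 fold change was 0.53 (SE 0.18; edgeR quasi-likelihood adjusted p = 1.00). Frs2, the main docking protein, measured 34.0 and 38.0 CPM (log2 fold change -0.16, SE 0.14). The phosphatase gene Ptpn11, which encodes SHP2, measured 151 CPM in both. The 13 genes of the RAS-ERK cascade had a median of -0.05 and 0 calls, with Map2k1, the gene of MEK1, at 164 and 168 CPM.

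Target and feedback genes of FGF-ERK signalling lay on both sides of 0. Of 14 tested genes 0 passed, 8 had a negative and 6 a positive log2 fold change, and the median was -0.05. Etv5, an FGF-induced transcription factor, measured 162 and 163 CPM in the knockout and wild type, Spred1 204 and 228 CPM, and Spry2 119 and 116 CPM. Knockout library 18 was the lowest for Spry2, at 67.0 CPM against 99.1 to 149 CPM in the others. Dusp6, the ERK phosphatase that is a standard readout of FGF signalling, measured 94.1, 77.3 and 66.7 CPM in knockouts 14, 16 and 18 against 112, 94.2 and 80.2 CPM in wild types 13, 15 and 17. The groups of Dusp6 overlapped (log2 fold change -0.27, SE 0.18, 95% interval -0.68 to 0.15). Within each name number the knockout libraries lay below the wild-type libraries, and with the number as a covariate the log2 fold change was -0.38, which did not pass the adjusted threshold either. Spry1 and Ccnd1 also had lower knockout libraries within each name number, and Dusp5 had higher ones, so the split is not particular to Dusp6. The share of all genes that show it was not computed, and nothing is read from it. The fit with the covariate called 0 genes over all genes tested, with 709 at an unadjusted quasi-likelihood p under 0.05. Dusp5, a nuclear ERK phosphatase, measured 7.75, 4.37 and 4.57 CPM in knockouts against 3.49, 3.48 and 3.02 CPM in wild types, without overlap and with knockout library 14 highest (log2 fold change 0.74, SE 0.30; edgeR quasi-likelihood adjusted p = 1.00). Ccnd1, the gene of cyclin D1, measured 17.6 and 24.3 CPM, with the highest value in wild-type library 17.

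**Figure D5:**
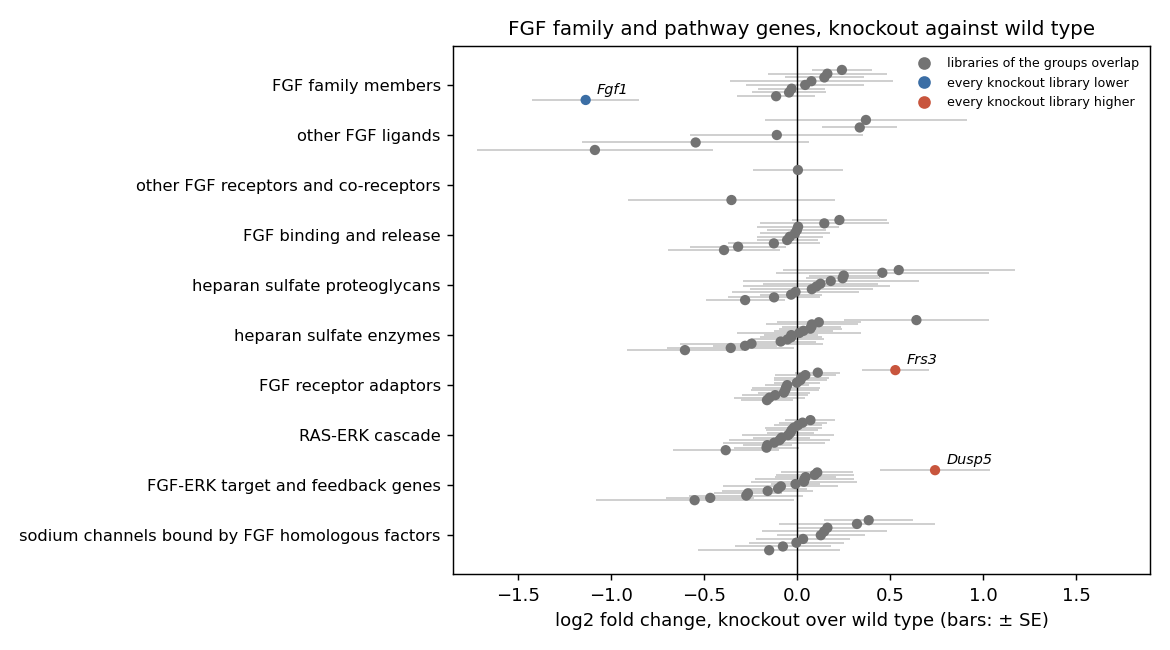
Log2 fold change, knockout over wild type, with its SE (horizontal axis) for each of the 9 members and 93 tested pathway genes, grouped by list. Fgf1 (-1.14) has all knockout libraries below the wild type, Frs3 (0.53) and Dusp5 (0.74) have all above, and all other genes overlap between the groups.

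Sodium channel genes and other partners of the homologous factors gave a median of 0.13 over their log2 fold changes, and 0 of 9 passed. Scn8a, the channel gene of the axon initial segment, measured 72.5, 52.4 and 96.3 CPM in knockouts 14, 16 and 18 against 36.9, 72.8 and 91.0 CPM in wild types 13, 15 and 17. Scn8a was lowest in wild type 13 and highest in knockout 18, as the neuron markers were. Fgf12 and Fgf14 were also lowest in wild type 13, but both were highest in knockout 14. Scn2a measured 103 and 101 CPM in the knockout and wild type. Mapk8ip2, the scaffold IB2 that binds homologous factors, ran from 20.7 CPM in wild-type library 13 to 71.8 CPM in knockout library 18.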

How the data were processed

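Ribosome-bound RNA of cortical astrocytes was sequenced in 6 libraries with 2 entries each. The deposited expected counts are RSEM estimates per gene; the submitters' processing notes name STAR 2.5.3a, RSEM 1.3.0, edgeR and mm10, and the sources used here do not give strand setting or annotation. The authors' comparison table holds log2 fold changes, each with p-value and adjusted p-value, and per entry a scaled signal, per the file headers. That signal was not used.

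Entries were checked by a chi-square statistic over features with at least 20 counts: its median was 0.467 to 0.494 between entries of a library and 2.93 to 18.8 between libraries. Entries were therefore summed and rounded. Genes were filtered with filterByExpr (14990 kept), scaled by TMM and tested with edgeR's quasi-likelihood test (edgeR 4.0.16, limma 3.58.1, R 4.3.3; 4 residual degrees of freedom), which was tested on simulated data, with Benjamini-Hochberg adjustment over all genes at 0.05. DESeq2 1.42.0, edgeR's exact test and limma voom were alternatives. The SE comes from the F statistic. Log2 CPM used a prior count of 2. Depth was 10953958 to 22397202 counts; an exact permutation test of 3 against 3 libraries cannot go below 0.1.

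The members and gene lists were chosen with earlier results of these data known. Genes named besides the members are, per pathway list, among the 3 with the smallest p and the 3 with the highest mean CPM, or the 5 most alike Fgf1 or Fgfr3; neighbours of Fgf1, Fgf5 and the undetected ligands, Fgfr4, Klb, Scn8a and Nudt6 were named after their values were seen.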

Additional observations from a re-analysis of the deposited data

How the results depend on the processing

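The direction of Fgf1 was fixed by its selection, so the 15 alternatives bear on its size. Its log2 fold change ran from -1.59 without knockout library 18 to -0.50 without libraries 14 and 16, the latter added after the data were seen. Its p-values under the alternatives are not given, since Fgf1 was selected on this contrast. The number of genes called was 0 in edgeR's quasi-likelihood test, 8 with DESeq2, 9 with edgeR's exact test, 6 without a filter on low counts, and 0 to 2 when each library was left out in turn.

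No member, Fgf1 included, passed under any alternative that kept more than 1 knockout library. Over all 9 members 22 of the 135 values changed sign. Of 388 values over 26 pathway genes 11 changed sign and 0 passed. With limma voom Fgf2 was at -0.42. With the name number as a covariate Fgf2 was at -0.42, Fgfr2 at -0.22, Fgfr3 at -0.081 and Fgfrl1 at -0.18. Without libraries 14 and 16 Fgf2 was at -1.31, Fgf12 at -0.20, Fgf13 at 0.018, Fgfr2 at -0.56, Fgfr3 at -0.36, Fgfrl1 at -0.37 and Rps6ka1 at 0.14. Fgfrl1 was at -0.0049 without a filter and -0.0038 without the ribosomal RNA features. Leaving out each library in turn gave ranges of -0.40 to 0.50 for Fgf2, -0.014 to 0.32 for Fgf12, -0.16 to 0.11 for Fgf13, -0.21 to 0.071 for Fgfr1, -0.21 to 0.28 for Fgfr2, -0.10 to 0.41 for Fgfr3, -0.19 to 0.20 for Fgfrl1, -0.69 to 0.56 for Kl, -0.27 to 0.0011 for Nras and -0.29 to 0.60 for Mapk8ip2. The cause of these sign changes was not tested. Fgf9 and Fgf14 kept their direction in all alternatives.

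The number of relations to marker means that passed stayed at 0 under 5 alternatives. Mean CPM levels of the 21 pathway genes named for their level moved by more than the spread between libraries in 31 of 231 values, under removal of the ribosomal RNA features or of libraries. No paired analysis was possible because each library number belongs to 1 library. The name number, 5 or 6, is shared by several libraries of both genotypes without matching them 1 to 1, and was used as a covariate.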
